A study of Mus musculus with 12 samples.

Results

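The contractile and SRF-dependent cytoskeleton genes are 10 genes: Acta2 (ENSMUSG00000035783), Tagln (ENSMUSG00000032085), Cnn1 (ENSMUSG00000001349), Myl9 (ENSMUSG00000067818), Tpm1 (ENSMUSG00000032366), Tpm2 (ENSMUSG00000028464), Actb (ENSMUSG00000029580), Vcl (ENSMUSG00000021823), Flna (ENSMUSG00000031328) and Srf (ENSMUSG00000015605). They were taken by gene ID from a list drawn up for this work, which also gave their symbols, out of 56748 gene IDs in the deposited tables. All 10 passed the filter on low counts, which kept 14338 genes. RNA abundance was measured by sequencing in cells labelled mesenchymal stem cells, isolated from mouse adipose tissue and kept with fetal bovine serum. They are called stromal cells here, and were grown either as attached single cells (2D) or as spheroids, which are rounded cell aggregates (3D). Sampling times were 0 h and 24 h. This gave 4 groups of 3 libraries, named here 2D 0 h, 2D 24 h, 3D 0 h and 3D 24 h, and 12 libraries in all. No drug, allele or transgene separates the groups, and the labels give no strain, age or sex for the mice. The age of the spheroids at 0 h is not stated in the labels, and neither is the origin of the replicates. The p-values therefore set group differences only against the spread among these libraries, and that spread may be technical variation. Library totals lay between 10182590 and 17109609 expected counts, that is, read counts per gene in which a read matching more than 1 gene is divided among them. Markers of stromal, smooth muscle and other cell types were fixed by symbol and were not analysed here, because the tables used pair no further gene IDs with symbols. The labelled cell type was therefore not checked against its markers.

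Actin filaments and the myosin motor pull on the substrate through adhesion sites, and stromal cells on stiff plastic build strong bundles of both, called stress fibres. When actin monomers are polymerised into filaments, cofactors of the MRTF family are released from them and enter the nucleus, where they act with serum response factor (SRF) on genes of actin, actin-binding proteins and SRF itself. SRF binds a DNA element called the CArG box. Acta2, which encodes smooth muscle actin, and its partners Tagln, Cnn1 and Myl9 are widely used markers of contractile stromal cells, or myofibroblasts.

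Promoters were searched because the CArG box links the transcription factor to the genes described with it. The 4 promoters printed here are those in which a CArG box, or a box with 1 letter off, was found. RefSeq windows on build GRCm38.p6, from 250 bases before to 50 bases after an annotated start, were found by symbol for 8 of the 10 genes, all but Tagln and Actb. The deposited values were made on another build, GRCm39, and no coordinate was carried between the builds. Capitals mark a CArG box (2 C, 6 letters A or T, 2 G, a pattern that reads the same on both strands) or a box with 1 of its 6 inner letters off. The sequences run 5′ to 3′ on the strand of the gene: Acta2 at chr19:34255324-34255623 (minus), Srf at chr17:46556113-46556412 (minus), Myl9 at chr2:156775214-156775513 (plus) and Vcl at chr14:20929148-20929447 (plus).
Acta2: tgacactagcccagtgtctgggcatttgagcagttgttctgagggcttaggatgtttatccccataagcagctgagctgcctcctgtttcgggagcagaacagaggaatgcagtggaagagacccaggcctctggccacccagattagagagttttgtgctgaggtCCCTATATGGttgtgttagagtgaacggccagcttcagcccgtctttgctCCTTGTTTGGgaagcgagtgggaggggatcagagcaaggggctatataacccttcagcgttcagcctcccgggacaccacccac
Srf: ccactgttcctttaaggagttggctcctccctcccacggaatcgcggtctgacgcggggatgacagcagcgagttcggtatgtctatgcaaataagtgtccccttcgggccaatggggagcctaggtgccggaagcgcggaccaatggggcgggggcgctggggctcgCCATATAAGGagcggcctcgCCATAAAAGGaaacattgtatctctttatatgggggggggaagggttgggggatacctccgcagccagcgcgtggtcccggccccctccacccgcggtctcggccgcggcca
Myl9: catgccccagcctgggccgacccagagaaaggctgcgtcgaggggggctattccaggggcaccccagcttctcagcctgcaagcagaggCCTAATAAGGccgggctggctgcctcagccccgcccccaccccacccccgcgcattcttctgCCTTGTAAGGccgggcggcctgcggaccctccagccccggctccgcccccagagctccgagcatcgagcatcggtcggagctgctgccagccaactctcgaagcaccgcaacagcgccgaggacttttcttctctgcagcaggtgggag
Vcl: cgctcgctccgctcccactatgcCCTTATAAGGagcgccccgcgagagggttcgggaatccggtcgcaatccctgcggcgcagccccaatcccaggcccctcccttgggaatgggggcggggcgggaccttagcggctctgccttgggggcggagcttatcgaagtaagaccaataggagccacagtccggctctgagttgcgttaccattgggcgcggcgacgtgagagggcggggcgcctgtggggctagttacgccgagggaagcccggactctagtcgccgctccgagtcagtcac

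The Srf window held 2 boxes, CCATATAAGG from position -82 and CCATAAAAGG from position -62, counted from the annotated start. The Myl9 window held CCTAATAAGG from -161 and, with 1 letter off, CCTTGTAAGG from -99. In the Vcl window CCTTATAAGG began at -227. Acta2 had no box with all letters matching, and 2 with 1 letter off, CCCTATATGG from -84 and CCTTGTTTGG from -34. Boxes with all letters matching thus lay in 3 of 8 windows, against 1.63% of the 32851 promoter windows in the table. Counting boxes with 1 letter off as well, they lay in 4 of 8 windows, against 9.98% of all windows. Cnn1, Tpm1, Tpm2 and Flna had none of either kind in these windows. A match describes letters and is not a measured binding site. The genes were listed as contractile or SRF-dependent, so these shares depend on how the list was drawn up, and the contrast with all windows was not tested.

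**Figure D1:**
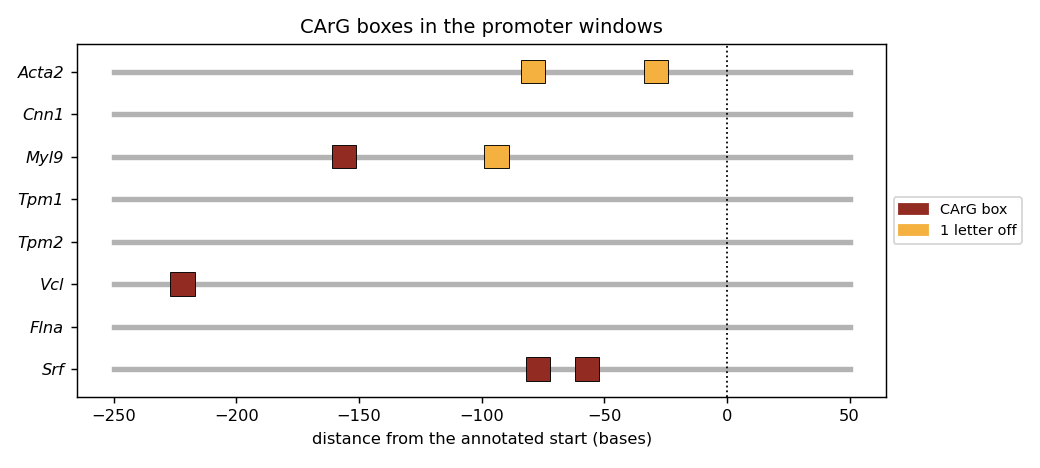
Positions of CArG boxes (red) and of boxes with 1 letter off (yellow) in the promoter windows of 8 genes, on an axis of distance from the annotated start in bases. Grey lines are the windows and the dotted line is the start. Srf, Myl9 and Vcl have boxes, Acta2 has 2 with 1 letter off, and the other 4 windows have none.

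In 2D cells several of these genes were among the most abundant RNAs. Levels are compared between genes as TPM (transcript abundance corrected for gene length and scaled to a fixed total per library). In 2D 0 h the order ran from Actb (7020 ± 2045 TPM, SD, n = 3) and Acta2 (6050 ± 174) through Tpm1 (2724 ± 173), Tpm2 (2208 ± 163), Tagln (2085 ± 31.4), Myl9 (1608 ± 110.0) and Cnn1 (1108 ± 40.9) to Flna (567 ± 94.4), Vcl (190 ± 37.1) and Srf (91.5 ± 11.1). Actb and Acta2 overlapped there, and so did Tpm2 and Tagln. Acta2 ranked from 7th to 8th of all genes by TPM in 2D 0 h, from 3rd to 4th in 2D 24 h, from 12th to 14th in 3D 0 h and from 436th to 488th in 3D 24 h. In 3D 24 h the order was Actb (2177 ± 262), Tpm1 (483 ± 13.4), Tpm2 (421 ± 22.2), Acta2 (387 ± 28.4), Tagln (214 ± 19.6), Flna (169 ± 20.8), Myl9 (119 ± 14.8), Cnn1 (63.0 ± 6.89), Vcl (29.9 ± 1.24) and Srf (17.4 ± 1.84). Tpm2 and Acta2 overlapped in that group.

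The 10 genes together held 2.37% ± 0.200 of all TPM in 2D 0 h, 3.02% ± 0.274 in 2D 24 h, 1.76% ± 0.0757 in 3D 0 h and 0.408% ± 0.0306 in 3D 24 h (SD, n = 3). The libraries of the 4 groups did not overlap in this share. Each of 4 exact permutation tests between groups gave p = 0.1, two-sided, which is the smallest that 3 libraries against 3 can give. In bulk RNA, fewer cells of a kind and less RNA per cell cannot be told apart.

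**Figure D2:**
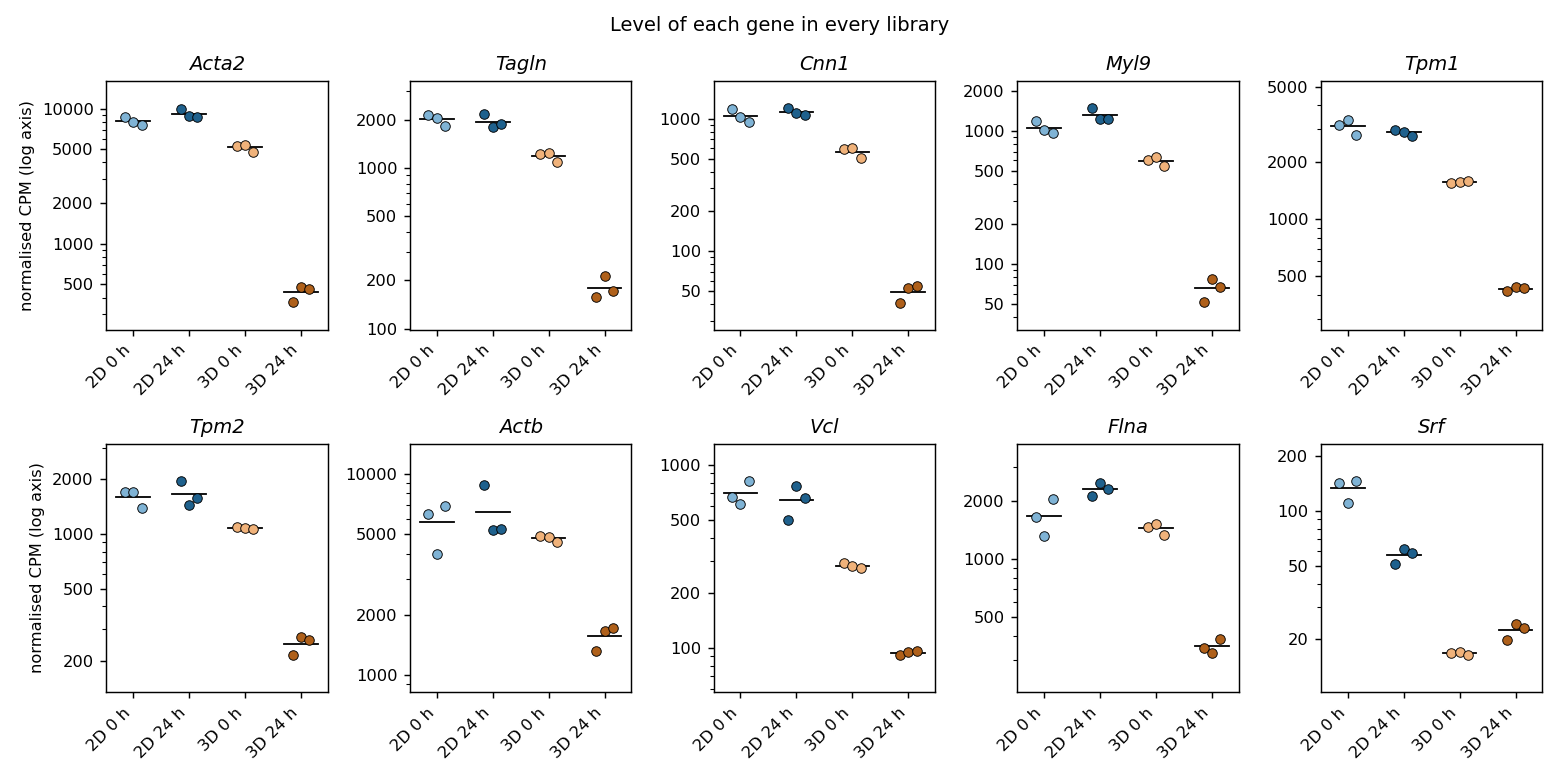
CPM (counts scaled to a fixed library total, with TMM factors between libraries) of each gene on a log axis, 1 panel per gene, with 3 libraries per group as points and the group mean as a bar. In 9 panels the 3D 24 h points lie below all others. In the Srf panel the lowest points are those of 3D 0 h, at 16.4 to 17.0 CPM.

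At 0 h, most of the genes were already lower in spheroids than in 2D cells. Srf stood lowest relative to 2D, at a log2 fold change of -2.98 ± 0.14 (SE), and Vcl followed at -1.31 ± 0.14. The markers of contractile cells and the tropomyosins lay between -0.97 and -0.57, while Actb and Flna did not pass the test. By the edgeR quasi-likelihood test at an adjusted p under 0.05, 8 of the 10 were lower and none was higher, where 22.7% of all genes tested were lower and 23.1% higher (45.8% called). Their median log2 fold change was -0.79, against 0.02 over all genes. In 8 of the 10 all spheroid libraries lay below all 2D libraries, as in 26.6% of all genes. The scaling moved the split over all genes, to 4025 higher and 2610 lower with upper-quartile factors, where the median shifted by 0.116 (log2), and left 8 of the 10 genes lower.

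At 24 h all 10 genes were lower in spheroids, where 22.8% of all genes were lower and 42.5% were called in either direction. Acta2, Cnn1 and Myl9 stood at 21.1-fold, 22.9-fold and 20.0-fold lower, Tagln at 10.8-fold, and Srf, the least changed, at 2.58-fold. Their median log2 fold change was -2.76, against -0.002 over all genes. The change was at least 4-fold for 9 of the 10, as for 3.93% of all genes. Of the 9, Actb lay close to that cutoff, at a log2 fold change of -2.05. Over 21 alternatives its value ran from -2.17 to -1.70, on either side of the cutoff. All spheroid libraries lay below all 2D libraries for each of the 10, as in 27.2% of all genes. Of the 14338 genes tested, 73 had a lower log2 fold change than Cnn1, 78 a lower one than Acta2 and 83 a lower one than Myl9.

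Within the 2D culture most of the genes differed little in CPM between 0 h and 24 h. Srf fell (log2 fold change -1.21 ± 0.13, SE; edgeR adjusted p = 3.7e-06), Flna rose by 0.46 ± 0.13 (edgeR adjusted p = 0.011), and the other 8 did not pass the test. In all genes tested, 17.4% rose and 17.0% fell (34.4% called). The median of the 10 was 0.08, against 0.025 over all genes. The split of 1 higher and 1 lower depended on the processing. With another scaling of the same counts it was 2 and 1 (upper-quartile factors, which added Myl9) or 3 and 1 (library totals, which added Acta2 and Myl9). It was 5 and 1 with limma on the deposited log2(TPM + 1) values, where the unit and the test change too, and Acta2, Cnn1, Myl9 and Tpm2 were added. The median of all genes moved by 0.144 (log2) with those TPM values.

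Within the spheroids 9 of the 10 fell over 24 h and Srf rose, a narrow call that was lost in 6 of 21 alternatives. In all genes tested, 24.7% fell and 23.8% rose (48.5% called). Acta2 and Cnn1 fell to levels 11.8-fold and 11.5-fold lower, Myl9 to 9.08-fold and Tagln to 6.58-fold. The decrease was at least 4-fold for 6 of the 10, against 4.62% of all genes. Of these 6, Tpm2 (4.34-fold) and Flna (4.07-fold) lay close to that cutoff. In the deposited TPM they fell 3.94-fold and 2.72-fold, while Acta2, Cnn1, Myl9 and Tagln stayed above 4-fold. The median log2 fold change of the 10 was -2.07, against -0.004 over all genes. The spheroid libraries at 24 h lay below those at 0 h for 9 of the 10, as in 30.5% of all genes. The 4 comparisons share groups in pairs, so a level of 1 group enters 2 of them.

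**Figure D3:**
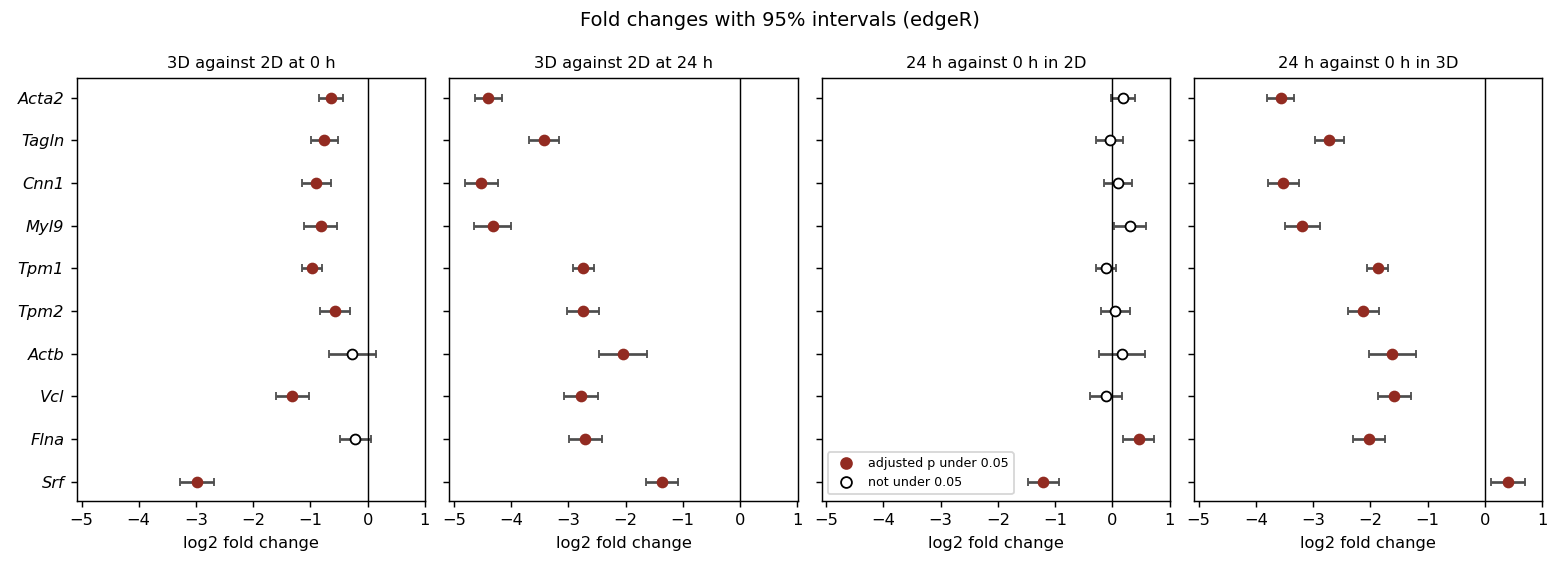
Log2 fold changes (x axis) of the 10 genes in 4 comparisons, with 95% intervals from the edgeR fit. Filled points passed an adjusted p under 0.05. All 10 lie left of 0 for spheroids against 2D at 24 h, and only Srf lies right of 0 for 24 h against 0 h in spheroids.

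The actins form the filaments. Acta2 encodes the actin of contractile cells. In CPM, which are counts scaled to a fixed library total after TMM normalisation, Acta2 stood at 8691, 7904 and 7635 CPM in 2D 0 h and at 10012, 8899 and 8693 CPM in 2D 24 h. It stood at 5281, 5426 and 4796 CPM in 3D 0 h and at 370.0, 476 and 463 CPM in 3D 24 h. The 4 groups did not overlap, with 2D 24 h highest and spheroids at 24 h far below the rest. The 2D groups nearly met, however, at 8691 CPM (0 h) and 8693 CPM (24 h). Acta2 was lower in spheroids at 0 h (log2 fold change -0.64 ± 0.10, SE; edgeR adjusted p = 5.0e-05) and at 24 h (-4.40 ± 0.11; edgeR adjusted p = 2.7e-14). In spheroids it fell over 24 h (-3.57 ± 0.11; edgeR adjusted p = 4.5e-13). In 2D its difference between the times did not pass the test (0.19, 95% interval -0.02 to 0.40, edgeR adjusted p = 0.15).

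Actb encodes the actin of the general cytoskeleton and is often used as a reference gene. In 2D 0 h it had 6307, 4011 and 6954 CPM, and in 2D 24 h 8824, 5250.4 and 5299 CPM. In 3D it had 4920.3, 4869 and 4568 CPM at 0 h and 1314, 1655 and 1722 CPM at 24 h. The 2D libraries were widely spread, with 2D 0 h replicate 2 below all spheroid libraries at 0 h, while spheroids at 24 h lay below every other library. The difference at 0 h did not pass the test (-0.27, 95% interval -0.67 to 0.14, edgeR adjusted p = 0.27). It was -0.47 without 2D 0 h replicate 2 (edgeR adjusted p = 0.036) and -0.066 without 2D 0 h replicate 3 (edgeR adjusted p = 0.82). At 24 h Actb was 4.13-fold lower in spheroids (log2 fold change -2.05 ± 0.20, SE; edgeR adjusted p = 2.6e-07), and within spheroids it fell 3.06-fold (edgeR adjusted p = 3.7e-06).

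Transgelin, calponin and the myosin light chain act on the filaments themselves. Cnn1 encodes calponin, an actin-binding regulator of smooth muscle contraction. It had 1188, 1032 and 943 CPM in 2D 0 h, 1208, 1109 and 1078 in 2D 24 h, 589.7, 603 and 509 in 3D 0 h, and 41.0, 53.0 and 54.4 in 3D 24 h. The 2D groups overlapped, and each spheroid group lay apart below them. The log2 fold change between cultures was -0.90 ± 0.12 at 0 h (SE; edgeR adjusted p = 9.3e-06) and -4.52 ± 0.14 at 24 h (edgeR adjusted p = 2.1e-13).

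Tagln encodes transgelin, which bundles actin filaments. It had 2125, 2057 and 1832 CPM in 2D 0 h, 2172, 1794 and 1868 in 2D 24 h, 1229, 1240.0 and 1094 in 3D 0 h, and 158, 211 and 172 in 3D 24 h. The 2D groups again overlapped, and each spheroid group lay apart below them. Spheroids were lower by -0.76 ± 0.11 at 0 h (log2, SE; edgeR adjusted p = 3.5e-05) and by -3.43 ± 0.12 at 24 h (edgeR adjusted p = 9.6e-13). The expected counts of Tagln and of Vcl were not whole numbers in any of the 12 libraries, so some of their reads were shared with other genes and their levels are less certain. For the other 8 genes every count was whole to within 0.001.

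Myl9 encodes a regulatory light chain of myosin, which is phosphorylated to start contraction. Its values were 1188, 1017 and 958 CPM in 2D 0 h, 1480.0, 1228 and 1229.8 in 2D 24 h, 609, 639.7 and 541 in 3D 0 h, and 51.5, 77.7 and 67.7 in 3D 24 h. No groups overlapped, and the 2D libraries at 24 h were the highest. Myl9 was lower in spheroids by -0.82 ± 0.13 at 0 h (log2, SE; edgeR adjusted p = 8.5e-05) and by -4.32 ± 0.15 at 24 h (edgeR adjusted p = 8.2e-13). Its difference between the times in 2D, 0.32 with a 95% interval of 0.04 to 0.60, did not pass after adjustment (edgeR adjusted p = 0.074), and did pass in 8 of 21 alternatives. These were upper-quartile scaling (edgeR adjusted p = 0.039), library totals (0.029), no low-count filter (0.021), only the 2D groups in the fit (0.038), the fit without 3D 24 h replicate 1 (0.029) and limma on TPM in its 3 settings (limma adjusted p = 0.0014, 0.0014 and 0.0066).

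Tropomyosins lie along actin filaments and set which proteins may bind them. Tpm1 had 3149.9, 3349.7 and 2769.6 CPM in 2D 0 h, 2965, 2893 and 2764 in 2D 24 h, 1556, 1577 and 1587 in 3D 0 h, and 419, 439 and 436 in 3D 24 h. For Tpm2 the values were 1713, 1705 and 1387 in 2D 0 h, 1968, 1444 and 1579.6 in 2D 24 h, 1090.0, 1075 and 1072 in 3D 0 h, and 214, 272 and 259.6 in 3D 24 h. The 2D groups overlapped for both genes and the spheroid groups stood apart below them. At 24 h the culture differences were alike in size, 6.66-fold lower for Tpm1 (log2 fold change -2.74 ± 0.09, SE; edgeR adjusted p = 4.0e-13) and 6.70-fold lower for Tpm2 (-2.74 ± 0.13; edgeR adjusted p = 2.9e-11). At 0 h Tpm1 was lower by -0.97 ± 0.08 (edgeR adjusted p = 6.6e-08) and Tpm2 by -0.57 ± 0.12 (edgeR adjusted p = 0.00098).

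Vcl and Flna belong to the links between actin, adhesions and membrane. Vinculin, the product of Vcl, couples integrin adhesions to actin. Vcl had 666, 613 and 816 CPM in 2D 0 h, 503, 772 and 662 in 2D 24 h, 292, 279 and 273 in 3D 0 h, and 91.5, 94.5 and 96.2 in 3D 24 h. The 2D groups overlapped, and the spheroid libraries were closely grouped below them at either time. Spheroids had 2.48-fold less Vcl RNA at 0 h (log2 fold change -1.31 ± 0.14, SE; edgeR adjusted p = 6.0e-07) and 6.86-fold less at 24 h (-2.78 ± 0.14; edgeR adjusted p = 9.2e-11).

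Filamin A, the product of Flna, crosslinks actin filaments into networks. Flna had 1663, 1313 and 2059 CPM in 2D 0 h, 2129, 2481 and 2325 in 2D 24 h, 1465, 1528 and 1341 in 3D 0 h, and 349, 327 and 387 in 3D 24 h. Spheroids at 0 h overlapped the 2D libraries of that time, and at 24 h they lay below every other library. The difference at 0 h did not pass the test (-0.22, 95% interval -0.49 to 0.05, edgeR adjusted p = 0.18), and it turned on single libraries. It was -0.37 without 2D 0 h replicate 2 (edgeR adjusted p = 0.011) and -0.003 without 2D 0 h replicate 3 (edgeR adjusted p = 0.99). At 24 h Flna was 6.52-fold lower in spheroids (log2 fold change -2.71 ± 0.14, SE; edgeR adjusted p = 7.3e-11). Its rise in 2D was lost without 2D 0 h replicate 1 (edgeR adjusted p = 0.051) and without 2D 24 h replicate 2 (edgeR adjusted p = 0.059). Its decrease within spheroids was 4.07-fold in CPM and 2.72-fold in the deposited TPM.

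Srf, the transcription factor of the group, had a profile of its own. It stood at 142, 110.1 and 145 CPM in 2D 0 h, 51.2, 62.0 and 58.9 in 2D 24 h, 16.9, 17.0 and 16.4 in 3D 0 h, and 19.8, 24.1 and 22.9 in 3D 24 h. The 4 groups did not overlap, and the order from high to low was 2D 0 h, 2D 24 h, 3D 24 h and 3D 0 h. At 0 h Srf was 7.91-fold lower in spheroids (log2 fold change -2.98 ± 0.14, SE; edgeR adjusted p = 3.7e-11), and 99 of all genes tested had a lower value. At 24 h it was 2.58-fold lower (-1.37 ± 0.13; edgeR adjusted p = 2.4e-07).

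In 2D Srf fell 2.31-fold over 24 h (edgeR adjusted p = 3.7e-06), while in spheroids it rose 1.33-fold (log2 fold change 0.41 ± 0.14, SE; edgeR adjusted p = 0.021). That rise was called narrowly. It was lost without 3D 0 h replicate 3 (edgeR adjusted p = 0.062), 3D 24 h replicate 2 (0.076) or 3D 24 h replicate 3 (0.058), and with limma on log2(TPM + 1) (adjusted p = 0.086). The library with the fewest Srf counts held 173, so the gene was measured well above the filter in every group.

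**Figure D4:**
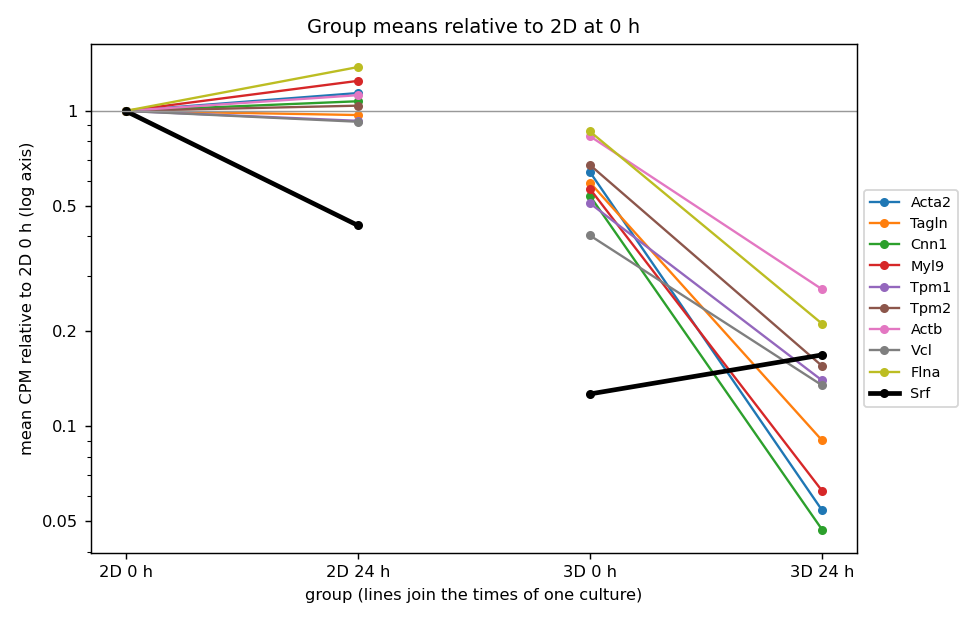
Mean CPM of each gene in the 4 groups divided by its mean in 2D 0 h, on a log axis, with lines joining the times of 1 culture and Srf in black. Srf goes down in 2D and slightly up in spheroids, while the other 9 genes lie between 0.924 and 1.38 in 2D 24 h, with Flna highest, and go down in spheroids.

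The culture difference changed with time for all 10 genes. By the edgeR test of that difference itself, the log2 fold change of spheroids against 2D was lower at 24 h than at 0 h for 9 genes and higher for Srf, where 20.5% of all genes were lower and 18.7% higher (39.1% called). The gap was -3.75 ± 0.15 for Acta2 (SE; edgeR adjusted p = 9.1e-12), -3.62 ± 0.17 for Cnn1 (edgeR adjusted p = 1.1e-10) and 1.61 ± 0.19 for Srf (edgeR adjusted p = 3.3e-06). Among the 9, the smallest gap was that of Vcl, -1.47 ± 0.19 (edgeR adjusted p = 1.1e-05). The median gap of the 10 was -2.33, against -0.02 over all genes.

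Ratios within a library do not depend on scaling between libraries. The ratio of Acta2 to Actb, both as TPM, was 0.918 ± 0.289 in 2D 0 h, 0.899 ± 0.210 in 2D 24 h, 0.657 ± 0.00261 in 3D 0 h and 0.178 ± 0.0140 in 3D 24 h (SD, n = 3). In 3D 24 h it lay between 0.165 and 0.193, below every other library, so the contractile actin was reduced more than the general one. The ratio of Cnn1 to Tagln was 0.531 ± 0.0147 in 2D 0 h, 0.621 ± 0.0430 in 2D 24 h, 0.491 ± 0.0354 in 3D 0 h and 0.295 ± 0.0397 in 3D 24 h. It too was lowest in spheroids at 24 h, without overlap.

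The ratio of Tpm1 to Tpm2 was 1.23 ± 0.0528 in 2D 0 h and 0.943 ± 0.0105 in 3D 0 h, and it overlapped between the cultures at 24 h (1.09 ± 0.150 and 1.15 ± 0.0943). The ratio of Myl9 to Acta2 was 0.266 ± 0.0117 in 2D 0 h and 0.291 ± 0.00813 in 2D 24 h. It was 0.236 ± 0.00809 in 3D 0 h and 0.308 ± 0.0216 in 3D 24 h, without overlap between the spheroid groups. Of the 16 exact permutation tests made on these ratios (4 ratios in 4 comparisons, two-sided), none could go below p = 0.1. For Acta2 over Actb at 24 h the exact permutation test gave p = 0.1, or 0.15 after Benjamini-Hochberg adjustment over the 16.

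**Figure D5:**
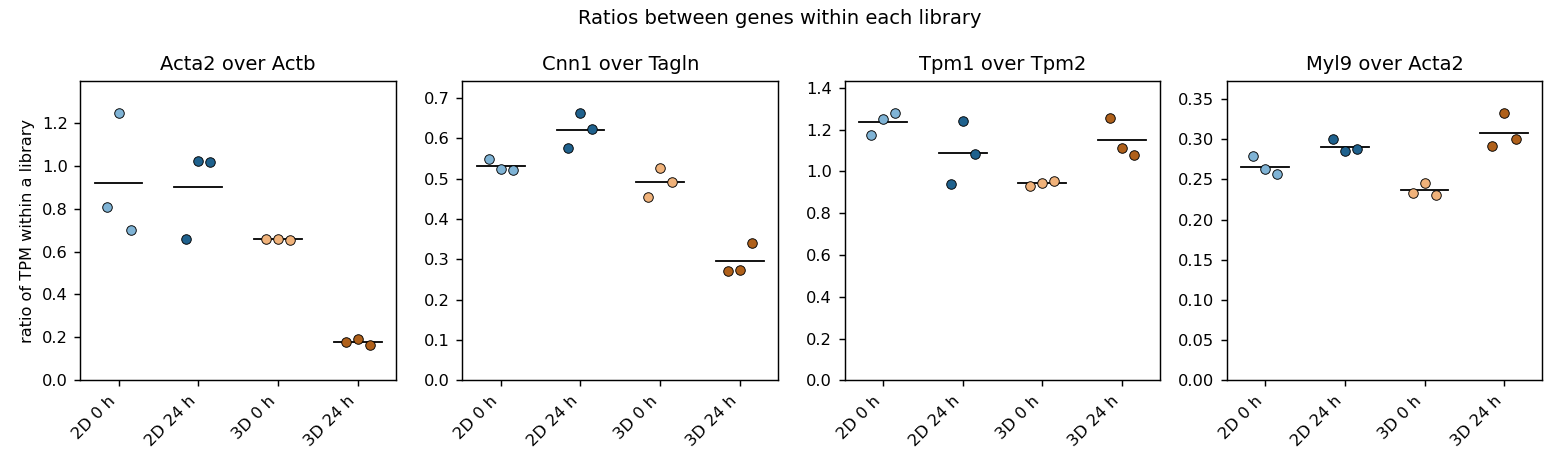
Ratio of TPM between pairs of the genes within each library (y axis, from 0), with 3 libraries per group as points and the group mean as a bar. Acta2 over Actb is 0.165 to 0.193 in spheroids at 24 h and at least 0.655 elsewhere.

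Likeness to Acta2 was measured as the root mean square difference between log2 CPM profiles over the 12 libraries, each profile centred on its mean. It was ranked over 9161 genes whose mean over the libraries was at least 10 CPM. Cnn1 was the nearest of all at 0.105 and Myl9 came next at 0.154, while Tagln was 8th at 0.383. Tpm2 and Tpm1 ranked 36th and 39th, Vcl 70th, Flna 75th and Actb 165th. Srf, at 1.51, ranked 1121st. The nearest gene that is not one of the 10 was ENSMUSG00000029859, 3rd at 0.198, with group means of 25.6, 30.3, 17.2 and 1.20 CPM in 2D 0 h, 2D 24 h, 3D 0 h and 3D 24 h. For Srf the nearest gene was ENSMUSG00000026343 at 0.274, with 80.8, 46.2, 14.6 and 18.1 CPM in the same order. The nearest of the 10 to Srf was Vcl, 496th at 0.806. The libraries of a group share their culture and time, so these distances describe the profiles and carry no p-value.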

How the data were processed

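RNA-seq libraries of 2D and 3D cultures at 0 h and 24 h were analysed. Per the labels' protocols, RNA went through a SMART-seq kit for low input and then a stranded mRNA kit. STAR, RSEM, FastQC 0.11.9 and build GRCm39 are named in the submitters' processing notes. Further versions and settings, and the annotation, were not given in the sources used here. Expected counts per gene and log2(TPM + 1) values are the units the authors deposited. D0 and D1 in the column names were read as 0 h and 24 h.

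The 10 genes, the lists and the tests were chosen with earlier results of these data known. The genes named are the 10 and those nearest in profile to Acta2 and Srf. Pathway and cell type lists, fixed by symbol, were not analysed here. Expected counts were rounded and fitted in R 4.3.3 with edgeR 4.0.16, using a minimum count of 10, TMM scaling, the quasi-likelihood test, 1 term per group over 12 libraries with 8 residual degrees of freedom, and Benjamini-Hochberg adjustment over 14338 genes at a threshold of 0.05. SE is the fold change over the square root of F. limma 3.58.1 (on the log2 TPM values) and DESeq2 1.42.0 were alternatives, beside other scalings and filters, the replicate number as a block and each library left out. The edgeR fit was also run on simulated counts with known changes, for the comparisons between groups. Only a small share of genes was changed there, far below the share called here. That run therefore does not test the scaling in these data, and its outcome is not given here. The change of the culture difference with time and the alternatives were not simulated. Replicates differed by more than sampling noise (chi-square per degree of freedom at least 4.51).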

Additional observations from a re-analysis of the deposited data

Results flagged for a closer look

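For all 10 genes the log2 fold change of 3D against 2D differed between 24 h and 0 h, by the edgeR test of that difference. The difference, 24 h minus 0 h, was -3.75 for Acta2, -3.62 for Cnn1, -3.50 for Myl9, -2.68 for Tagln, -2.49 for Flna, -2.17 for Tpm2, -1.78 for Actb, -1.76 for Tpm1, -1.47 for Vcl and 1.61 for Srf. Over all genes tested, 39.1% passed the same test. Samples far from their group were not looked for by rule, since each group has 3 libraries.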

How the results depend on the processing

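Over all alternatives run, the 10 genes kept their direction and their call at 24 h, and so did the difference between the times. At 0 h none changed direction, and 8 to 10 were called when each library was left out. The changes lay in the comparison of 24 h against 0 h in 2D, where 2 genes were called, against 4 with library totals and 6 with limma on log2(TPM + 1), on log2(TPM + 0.1) or without the filter on low values. Leaving out each library gave 1 to 3. Directions turned there only for genes that were not called. Tagln was 0.007 with upper-quartile scaling, 0.013 with library totals and 0.151 with limma in its 3 settings. Tpm1 was 0.109 and Vcl 0.091 to 0.092 (0.091, 0.092 and 0.091) in those settings. With each library left out, Tagln lay between -0.128 and 0.019, Tpm2 between -0.08 and 0.156, Actb between -0.128 and 0.349 and Vcl between -0.26 and 0.034. The cause was not tested. Within spheroids 9 to 10 genes were called with each library left out, and the rise of Srf was lost in 6 of the 21 alternatives. Libraries of the same replicate number did not deviate together (correlations from -0.234 to 0.052), which gave no sign of pairing by number. With 3 libraries per group and the origin of the replicates not stated, these correlations cannot exclude pairing. With the replicate block the counts of genes called stayed at 8, 10, 2, 10 and 10 in the 4 comparisons and the difference. Precision is limited by the 3 libraries per group.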

Other observations

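Among the 2D libraries the genes split by replicate. 2D 0 h replicate 3 was the highest of its group for Actb, Vcl, Flna and Srf and the lowest for Acta2, Tagln, Cnn1, Myl9, Tpm1 and Tpm2. In 2D 24 h replicate 1, Vcl (503 CPM), Flna (2129) and Srf (51.2) were the lowest of their group, and Acta2 (10012), Tagln (2172), Cnn1 (1208), Myl9 (1480), Tpm1 (2965), Tpm2 (1968) and Actb (8824) the highest. The spread of Actb was 26.9% of its mean in 2D 0 h and 31.7% in 2D 24 h (coefficient of variation, n = 3), against 3.97% in 3D 0 h and 14.0% in 3D 24 h. For Acta2 it was 6.79%, 7.71%, 6.39% and 13.3% in the same order of groups. These patterns were noticed after the values were seen and were not tested.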
